A study of Homo sapiens with 11 samples.

Results

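Through all peak lists of the study, 9 genes were followed: the ligands TGFB1 and TGFB2, the receptors TGFBR1, TGFBR2 and TGFBR3, the signal transducers SMAD2 and SMAD3, and LOX and FOXO1. They are 9 of 19974 protein-coding genes on chromosomes 1 to 22 and X. They were taken by gene name, with earlier results of these data known, and every peak that touched the gene body or the 100 kb on either side of it was taken, with its position, its fold enrichment over background and its −log10 p. The lists placed 218 of 134925 peaks in these 9 windows.

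Chromatin immunoprecipitation and sequencing (ChIP-seq), which maps where a protein or a histone mark sits on DNA, was done in fixed cells of SK-N-MC, an established Ewing sarcoma line labelled wildtype. One library was made for each of 9 targets: the histone marks H3K4me1, H3K4me3, H3K27ac and H3K27me3, the factor FLI1, and the chromatin proteins RBBP4, MTA2, HDAC2 and, by its Flag tag, CHD4. The cells with tagged CHD4 were also labelled wildtype, and the sources used here do not say how they got the tag. With 1 library a target there is no replicate error, and the values below describe these libraries and carry no test.

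Transforming growth factor beta ligands bind TGFBR2, which phosphorylates TGFBR1, which in turn phosphorylates SMAD2 and SMAD3, and these enter the nucleus with SMAD4 to change transcription. In Ewing sarcoma the fusion EWSR1::FLI1, whose FLI1 part binds DNA, is known to raise some genes and to lower others, among them TGFBR2, LOX and FOXO1. CHD4, HDAC2, MTA2 and RBBP4 belong to NuRD, a complex that moves nucleosomes and removes acetyl groups from histones. H3K27ac is found at active promoters and enhancers, H3K4me1 at enhancers, H3K4me3 at promoters and H3K27me3 at chromatin silenced by Polycomb. No expression values were used here, so lowered expression of these genes in these cells was not checked.

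The FLI1 part of the fusion recognises GGAA. The 250 bases before 4 listed starts are shown (RefSeq promoter table, GRCh38.p14, 5′ to 3′ along the gene), with GGAA and its reverse TTCC in capitals. TGFBR2, LOX and FOXO1 are the genes known to be lowered by the fusion, and TGFB2 was the gene with no peak of any target at its start.
TGFBR2, second listed start, chr3:30606351-30606600, plus strand: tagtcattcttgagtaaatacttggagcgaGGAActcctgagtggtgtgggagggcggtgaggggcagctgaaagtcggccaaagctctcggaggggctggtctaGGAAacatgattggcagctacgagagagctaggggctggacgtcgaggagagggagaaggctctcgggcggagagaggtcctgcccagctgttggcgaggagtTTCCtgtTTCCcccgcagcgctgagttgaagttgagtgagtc
LOX, first listed start, chr5:122078260-122078509, minus strand: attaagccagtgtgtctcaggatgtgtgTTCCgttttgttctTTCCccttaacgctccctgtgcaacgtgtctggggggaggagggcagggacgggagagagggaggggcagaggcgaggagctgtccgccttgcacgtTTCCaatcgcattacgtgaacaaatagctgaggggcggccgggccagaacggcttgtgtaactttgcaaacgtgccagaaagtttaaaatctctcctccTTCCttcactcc
FOXO1, chr13:40666642-40666891, minus strand: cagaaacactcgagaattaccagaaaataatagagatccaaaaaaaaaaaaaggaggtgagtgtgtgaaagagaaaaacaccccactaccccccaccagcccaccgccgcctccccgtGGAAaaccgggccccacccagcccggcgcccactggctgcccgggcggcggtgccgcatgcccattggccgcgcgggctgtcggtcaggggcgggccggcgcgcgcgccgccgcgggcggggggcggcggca
TGFB2, chr1:218345086-218345335, plus strand: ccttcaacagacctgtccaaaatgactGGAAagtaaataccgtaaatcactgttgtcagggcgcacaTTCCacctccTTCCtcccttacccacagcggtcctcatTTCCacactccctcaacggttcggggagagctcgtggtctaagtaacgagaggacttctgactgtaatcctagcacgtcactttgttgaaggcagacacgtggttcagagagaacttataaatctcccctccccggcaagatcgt
On both strands together GGAA occurred 4 times before the TGFBR2 start, 4 times before the LOX start, once before the FOXO1 start and 4 times before the TGFB2 start. The windows shown for TGFBR2 and LOX held the most matches of their genes: there were 2 before the first listed start of TGFBR2, and 2 and 3 before the other listed starts of LOX. It occurred at least once in 92.7% of the 34789 windows of this length before listed starts, with a median of 3, and 34.3% held 4 or more. The repeat GGAAGGAA, in 3.06% of those windows, was in none of the 4 sequences shown. Of the other listed starts of the 9 genes, only the third of TGFBR1, not shown, had it. That window held 7 GGAA matches, a number reached by 4.10% of windows. In TGFBR2, 2 TTCC runs lay close together, beginning 42 and 35 bases before the start. No FLI1 peak covered any of the 4 windows. The sequence under the peaks themselves was not used here.

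At the 9 windows as a whole, the number of genes with a peak was close to what other genes had for several targets. FLI1 peaks were in 1 of the 9 windows, against 12.7% of all protein-coding genes. A site with all 4 NuRD subunits, where overlapping peaks of CHD4, HDAC2, MTA2 and RBBP4 are merged, was in 5 of the 9, against 38.0%. H3K27ac was in 8 of 9, against 78.1%, and H3K27me3 in 0 of 9, against 14.5%. The H3K27me3 list held no peak on the whole chromosome of SMAD2, so its count says nothing of that gene. Single subunits were frequent everywhere: CHD4 was in 8 windows (background 61.6%), HDAC2 in 8 (81.6%), MTA2 in 9 (70.2%) and RBBP4 in 9 (71.3%). H3K4me1 was in 7 (66.2%) and H3K4me3 in 9 (85.4%). Among the 11204 genes whose bodies were as long as those of these 9, the background was 12.6% for FLI1, 38.9% for 4-subunit sites and 13.9% for H3K27me3. A window without a peak is not a window without the protein, since the lists give no read depth and hold only peaks above a threshold.

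**Figure D1:**
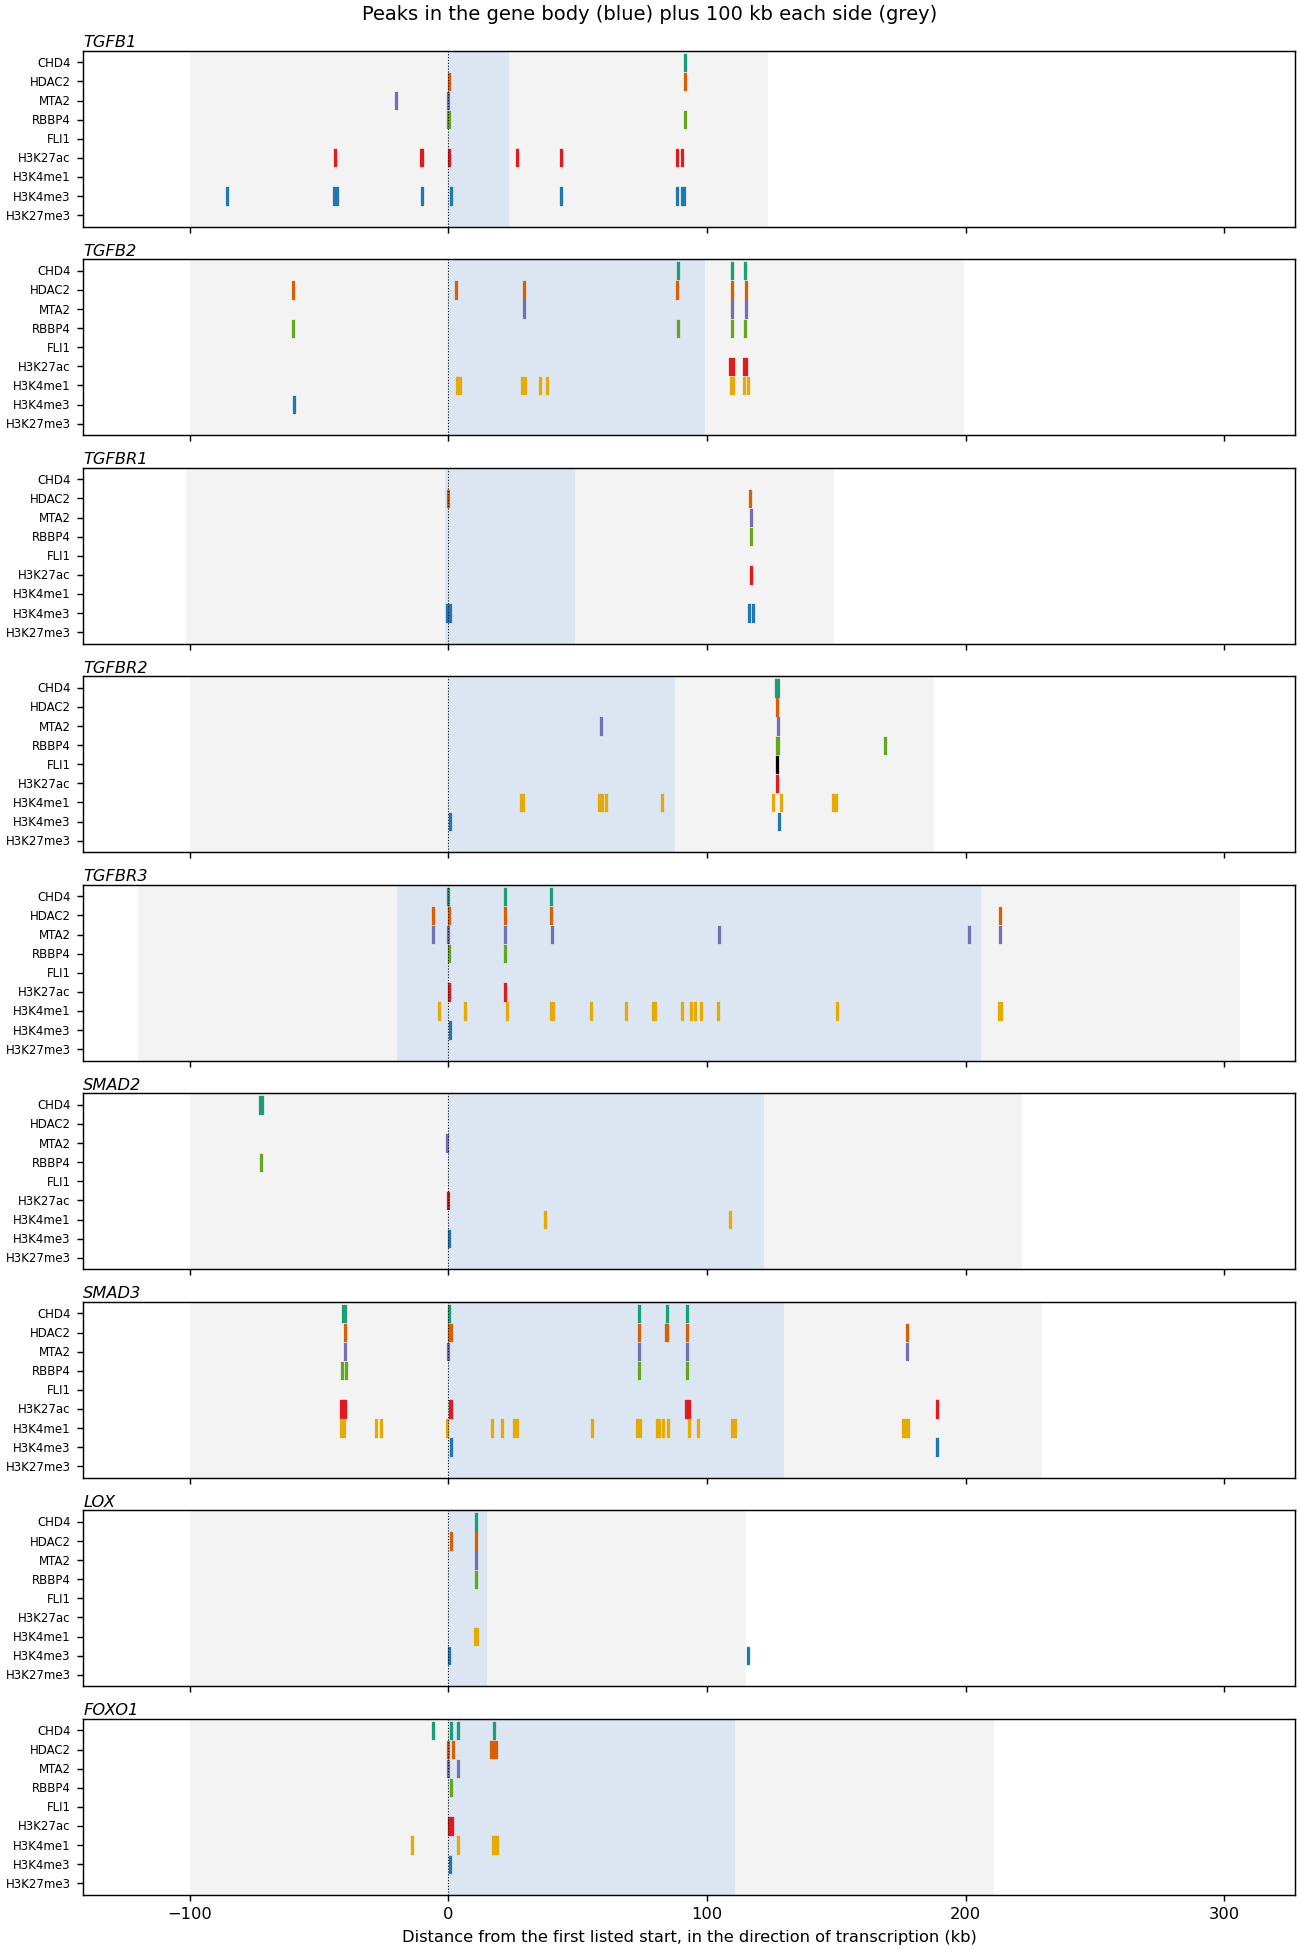
Positions of all 218 peaks in the 9 windows, 1 panel a gene, on an x axis in kb from the first listed start in the direction of transcription, with 1 row for each target. Each tick is the midpoint of a peak, blue is the gene body and grey the 100 kb on each side. The only FLI1 tick lies downstream of TGFBR2, and the H3K27me3 rows are empty.

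The windows differed widely in how many peaks they held, and peaks at neighbouring genes count in them. Over the 9 windows, 13 of the 23 H3K4me3 peaks and 8 of the 27 H3K27ac peaks lay at starts of other genes. SMAD3 had 56 peaks, and 6.56% of all genes had as many. That is 16.99 per 100 kb of window, and 14.1% of genes were as dense. TGFBR3 had 37, TGFB2 32, TGFB1 25, TGFBR2 22 and FOXO1 20. TGFBR1 and LOX had 9 each and SMAD2 had 8, the fewest. Per 100 kb, SMAD3, TGFB1 (11.2), TGFB2 (10.7), TGFBR3 (8.69) and TGFBR2 (7.64) were above the median of all genes, 6.60, and FOXO1 (6.43), LOX (4.18), TGFBR1 (3.59) and SMAD2 (2.49) below it. H3K4me1 gave 23 of the 56 SMAD3 peaks, a number reached by 1.57% of genes, and 2.46% were as dense per 100 kb. In TGFB1 and TGFBR1 the H3K4me1 list had none.

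**Figure D2:**
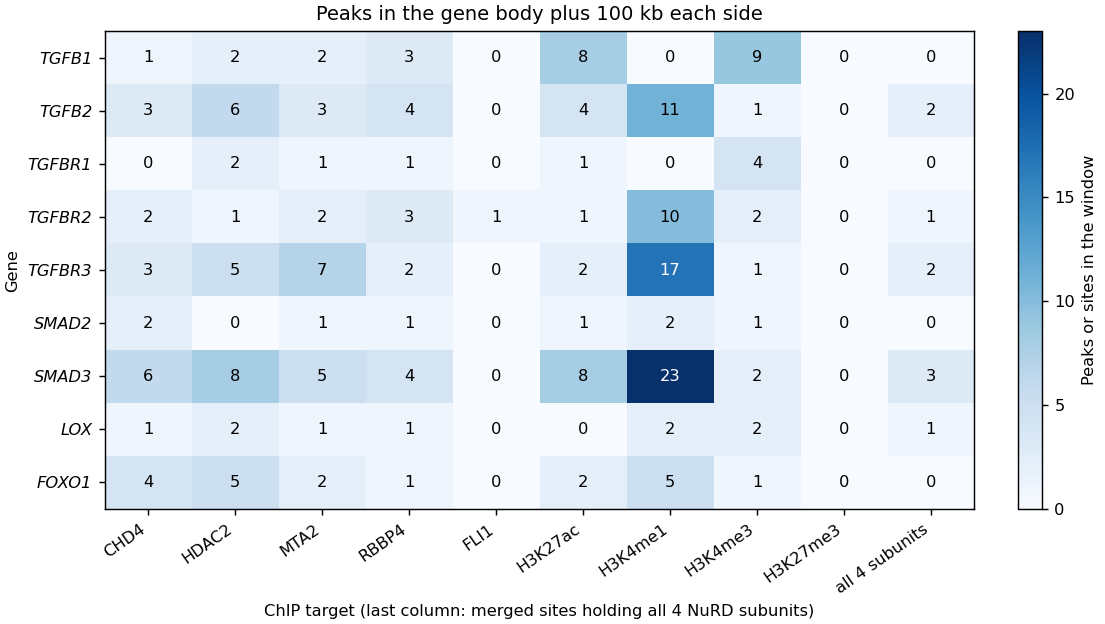
Number of peaks of each target (columns) in each gene's window (rows), with merged sites of all 4 NuRD subunits in the last column, and darker blue for more. SMAD3 had the most H3K4me1 peaks, 23, and the FLI1 column holds a single 1, at TGFBR2.

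The start of the gene was marked by H3K4me3 within 1 kb in 8 of the 9, against 61.2% of the 15813 protein-coding genes with a listed start. H3K27ac was at 5 of 9 starts (42.3% of those genes), HDAC2 at 6 (41.3%), MTA2 at 5 (22.2%), RBBP4 at 4 (23.9%) and CHD4 at 3 (11.1%). FLI1 was at 0 (0.885%), H3K27me3 at 0 (2.47%, with SMAD2 on a chromosome without H3K27me3 peaks) and H3K4me1 at 1 (5.77%), SMAD3. Of the 8 starts with H3K4me3, those of TGFBR1, TGFBR2 and LOX had no H3K27ac peak. That is 3 of 8, where 32.0% of the 9681 starts with H3K4me3 lacked H3K27ac in the whole series. HDAC2 was at TGFBR1 and LOX among these 3, and in the series at 49.3% of starts with H3K4me3 but no H3K27ac and at 73.3% of those with both marks.

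**Figure D3:**
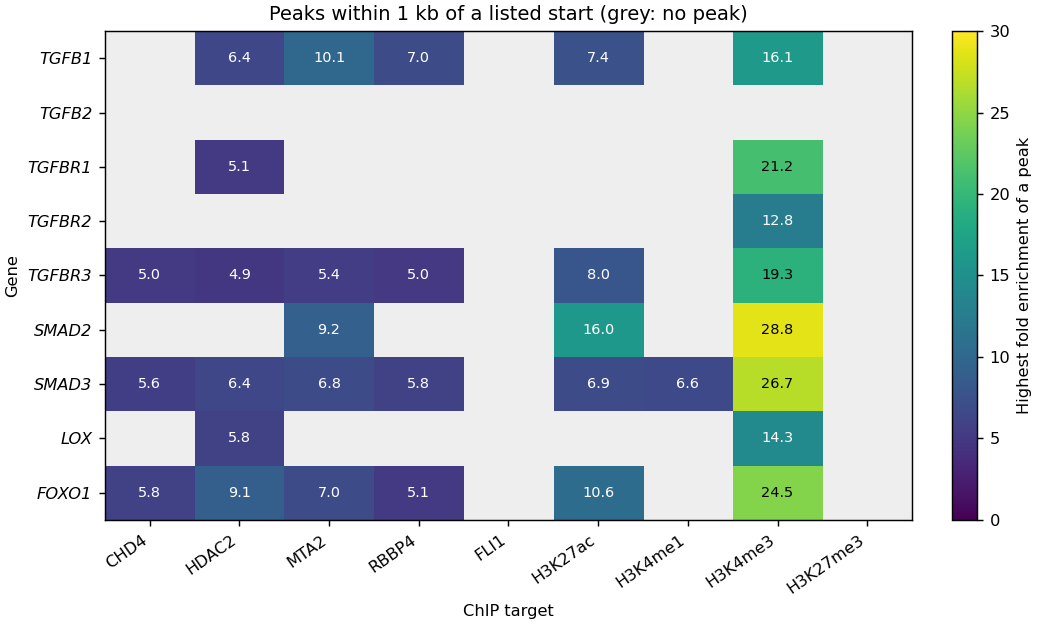
Highest fold enrichment of a peak within 1 kb of a listed start, for each gene (rows) and target (columns). Colour runs from dark at low to yellow at high fold, and grey means no peak. H3K4me3 is present in all rows but TGFB2, from 12.8 at TGFBR2 to 28.8 at SMAD2, and the FLI1 and H3K27me3 columns are grey throughout.

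Of the 2 ligand genes, TGFB1 had a marked start and TGFB2 did not. TGFB1, on chromosome 19 (41330323 to 41353922, minus strand), encodes the ligand most widely made in tissues. Its start carried HDAC2 at 6.41-fold, MTA2 at 10.1-fold, RBBP4 at 6.97-fold, H3K27ac at 7.39-fold and a 2979 bp H3K4me3 peak at 16.1-fold. CHD4 was missing there, so the start did not count as a 4-subunit site. The TGFB1 window also holds 10 other protein-coding genes, and 7 of its 8 H3K27ac peaks lay away from the TGFB1 start. The highest in −log10 p, at 19.7-fold, was in HNRNPUL1 89.3 kb from the TGFB1 start, and its CHD4 peak was also at the HNRNPUL1 end. The H3K4me3 peak of highest −log10 p in the window, 96.0, was 22.7-fold at BCKDHA.

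TGFB2, on chromosome 1 (218345336 to 218444619, plus strand), encodes a ligand that binds TGFBR2 weakly without the co-receptor TGFBR3. Within 1 kb of its start no list had a peak, a state shared by 35.2% of genes with a listed start. Its subunit peaks lay at RRP15 upstream, inside the gene and past its other end. Past the end, 109.8 and 114.7 kb from the start, were 2 sites with all 4 subunits, 10.5 and 15.5 kb from the end of the gene. At the nearer one (218454771 to 218455429) CHD4 was 5.45-fold, HDAC2 6.43-fold, MTA2 6.93-fold and RBBP4 5.61-fold. At the farther one (218459655 to 218460492) the values were 6.41, 4.94, 4.14 and 6.49. Both also overlapped H3K27ac and H3K4me1, and the H3K27ac peak of highest −log10 p in the window, at 8.71-fold with a −log10 p of 44.7, was at the farther site. Inside the gene, 88.6 kb from the start, CHD4, HDAC2 and RBBP4 peaks lay together with no MTA2. The only H3K4me3 peak in the TGFB2 window was at the start of RRP15, a ribosomal RNA processing gene, at 12.8-fold.

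Among the receptors, TGFBR2 had the only FLI1 peak, and it lay far from the gene. TGFBR2, the ligand-binding receptor kinase, is on chromosome 3 (30606356 to 30694142, plus strand). Its start had a single H3K4me3 peak (30606522 to 30607243) of 12.8-fold and −log10 p 38.3. That peak covered 79 of the 250 bases shown before the second listed start. No H3K27ac and no NuRD subunit was at the TGFBR2 start, a state found at 12.8% of starts with H3K4me3. LOC105377015, annotated across the same place, has an end 38 bp from this summit, so the mark cannot be given to either gene alone. Inside the gene body, 58.8 kb from the start, was 1 MTA2 peak of 8.72-fold.

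The FLI1 peak spanned 30733475 to 30733698, in the neighbouring gene GADL1, 39.3 kb past the end of TGFBR2 and 127.2 kb from its start. Its fold enrichment was 4.69 and its −log10 p 15.4, and 86.9% of the FLI1 list was as high in fold. It was therefore one of the lower FLI1 peaks in fold, against a list median of 7.29. In −log10 p, 61.3% of the list was as high. Peaks of all 4 subunits overlapped it: CHD4 at 7.36-fold, HDAC2 at 8.44-fold, MTA2 at 7.07-fold and RBBP4 at 6.77 and 6.18-fold in 2 peaks. Few peaks were as high in their own lists for CHD4 (5.61%), HDAC2 (4.67%) and RBBP4 (7.56%), while 42.0% were for MTA2. The HDAC2 summit was 84 bp from the FLI1 summit, the RBBP4 summits 184 and 214 bp, CHD4 205 bp and MTA2 228 bp. H3K27ac covered 4860 bp around it (30730965 to 30735824) at 20.7-fold. Only 0.767% of H3K27ac peaks were as wide and 1.35% as high. H3K4me1 lay on both sides and not on the FLI1 peak, at 9.04-fold with a gap of 934 bp and at 4.10-fold with a gap of 889 bp. A 338 bp H3K4me3 peak of 7.85-fold began 427 bp away. In the series, 17.2% of sites with all 4 subunits overlapped a FLI1 peak. The region is nearer to an annotated end of GADL1 (7.38 kb) than to TGFBR2, and which gene it acts on was not measured.

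**Figure D4:**
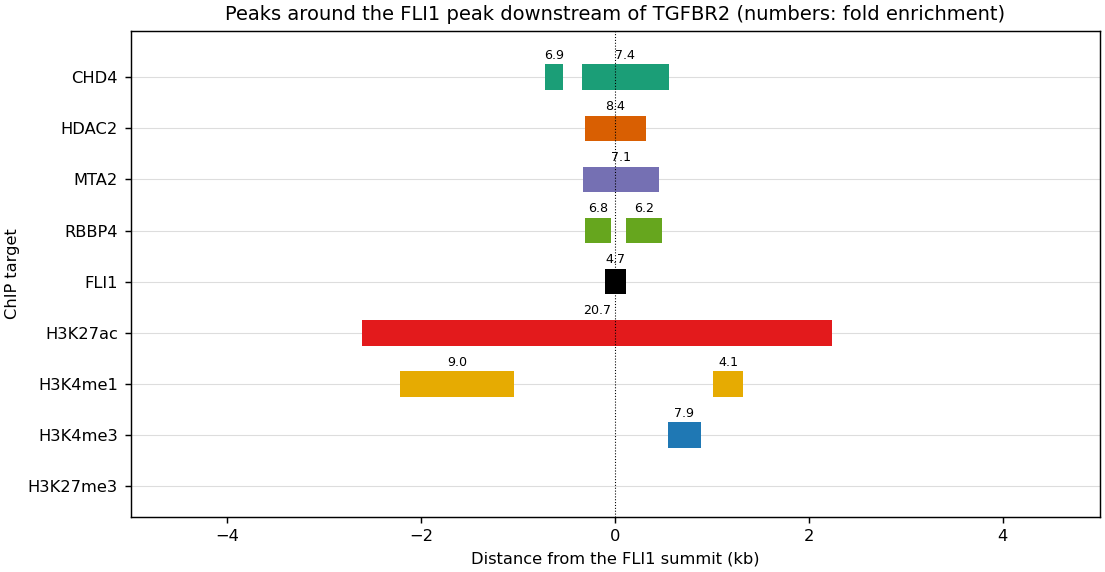
Peaks of each target (rows) around the FLI1 peak downstream of TGFBR2, on an x axis in kb from the FLI1 summit. Bars span each peak, and the number above each is its fold enrichment. All 4 subunits and the 4860 bp H3K27ac peak cover or flank the FLI1 summit, and the H3K4me1 bars lie to either side.

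TGFBR3, also called betaglycan, is the co-receptor that presents ligand to TGFBR2. It lies on chromosome 1 (91680343 to 91906002, minus strand), and its listed start, at 91886151, is inside the annotated gene. It was the only one of the 9 with a merged 4-subunit site at its first listed start. There CHD4 was 5.04-fold, HDAC2 4.92-fold, MTA2 5.44-fold and RBBP4 5.03-fold, with H3K27ac at 7.98-fold and H3K4me3 at 19.3-fold. These are middling values, with 64.6% of 4-subunit sites as high in mean rank. A stronger site lay 21.8 kb into the gene (91863925 to 91864818), with CHD4 at 6.81-fold, HDAC2 at 7.55-fold, MTA2 at 6.57-fold and RBBP4 at 5.56-fold, inside a 1674 bp H3K27ac peak of 5.35-fold. The highest HDAC2 peak of all 9 windows was at neither of them. It lay 5.99 kb upstream of the listed start (91891657 to 91892490) at 11.03-fold, and 0.640% of the HDAC2 list was as high. MTA2 was there at 4.41-fold, in the lower part of its list, and CHD4, RBBP4, H3K27ac and H3K4me3 were not listed. TGFBR3 also had 17 H3K4me1 peaks, a number reached by 3.44% of genes. Its window was the longest of the 9, and per 100 kb 10.1% of genes were as dense in H3K4me1.

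TGFBR1, the signalling partner of TGFBR2, on chromosome 9 (99103647 to 99154192, plus strand), had little bound beyond its start. The RefSeq table lists 8 starts for it. An HDAC2 peak of 5.09-fold covered all 250 bases before the first of these, and H3K4me3 peaks of 7.50 and 21.2-fold lay upstream and downstream of that start. The MTA2, RBBP4 and H3K27ac peaks in its window were all 117 kb away at ALG2 and SEC61B. That H3K27ac peak was 13.5-fold, and the H3K4me3 peaks of highest −log10 p in the window were also there, at 20.5 and 23.4-fold. Thus TGFBR1 itself had HDAC2 and H3K4me3 and no other target.

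SMAD2 and SMAD3, whose proteins carry the signal to the nucleus, stood at the 2 ends of the range. SMAD2, on chromosome 18 (47808957 to 47930872, minus strand), had at its start the highest H3K4me3 peak of the 23 in the windows, at 28.8-fold, and H3K27ac at 16.0-fold over 1715 bp. MTA2 was there at 9.17-fold. It was the only one of the 9 with no HDAC2 peak in its window. CHD4 and RBBP4 were together 72.1 kb upstream, with CHD4 at 5.48-fold and RBBP4 at 4.87-fold. A separate CHD4 peak of 4.72-fold, 72.7 kb upstream, overlapped no other target.

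SMAD3, on chromosome 15 (67065602 to 67195169, plus strand), had H3K4me3 at its first start at 26.7-fold, H3K27ac at 6.92-fold, HDAC2 at 6.40-fold, MTA2 at 6.81-fold, H3K4me1 at 5.60-fold and CHD4 at 3.84-fold. An H3K4me3 peak of higher −log10 p in the window, 28.7-fold, was in AAGAB. RBBP4 was not listed there, and its peak within 1 kb of a start was at an internal start of the gene. That internal place (67138870 to 67139527) had all 4 subunits, with CHD4 at 5.60-fold, HDAC2 at 4.53-fold, MTA2 at 4.70-fold and RBBP4 at 5.82-fold, and H3K4me1 but no H3K27ac. Farther in, 92.4 kb from the first start (67157626 to 67158404), HDAC2 reached 8.31-fold and MTA2 10.7-fold, while CHD4 was 4.39-fold and RBBP4 4.51-fold. There H3K27ac and H3K4me1 peaks overlapped the site, among them the H3K27ac peak of highest −log10 p in the window, at 6.12-fold. The third 4-subunit site, 39.8 kb upstream (67025603 to 67026044), had CHD4 at 4.69-fold, HDAC2 at 4.31-fold, MTA2 at 4.17-fold and RBBP4 at 3.55-fold. Of all 4-subunit sites, 91.3% were as high in mean rank, and MTA2 and RBBP4 were below the lower quartiles of their lists, while CHD4 was near its list median of 4.65. SMAD3 was thus the only one of the 9 with 3 such sites.

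LOX and FOXO1, both known to be lowered by the fusion, had no FLI1 peak in their windows, and their histone marks differed. LOX encodes lysyl oxidase, which cross-links collagen and elastin. It lies on chromosome 5 (122063195 to 122078259, minus strand), where the annotated body of SRFBP1 also runs across it. The LOX start had H3K4me3 at 14.3-fold over 2053 bp, covering all 250 bases shown. An HDAC2 peak of 5.78-fold (122076752 to 122077982) lay inside the gene, short of those bases. All 4 subunits met 10.7 kb into the gene (122067415 to 122067741), CHD4 at 4.09-fold, HDAC2 at 5.99-fold, MTA2 at 5.60-fold and RBBP4 at 5.22-fold. Their summits lay within 59 bp of each other, the closest of the 9 such sites, with the upstream SMAD3 site next at 62 bp. H3K4me1 was there at 5.16-fold, and the LOX window was the only one of the 9 with no H3K27ac peak. The nearest FLI1 peak was 4573 kb away, and 95.8% of genes had one as near.

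FOXO1, a transcription factor of stress and growth arrest, is on chromosome 13 (40555667 to 40666641, minus strand). Its start had every one of the 4 subunits, in peaks that did not all join into 1 site. HDAC2 had 2 peaks there, of 9.12 and 8.85-fold, and 2.79% of the HDAC2 list was as high as the first. CHD4 was 5.83-fold, RBBP4 5.06-fold and MTA2 6.96-fold. H3K27ac had 2 peaks, of 10.6 and 7.09-fold, under a 3461 bp H3K4me3 peak of 24.5-fold. The HDAC2 peak covered all 250 bases shown before the start, MTA2 118 of them and H3K27ac 0. About 17.5 kb into the gene HDAC2 and CHD4 peaks lay beside H3K4me1, with CHD4 at 6.11-fold. FOXO1 therefore had high HDAC2 together with H3K27ac, and LOX had HDAC2 at its start without it.

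The H3K4me1 peak of highest −log10 p lay inside the gene in 6 of the 7 genes that had one. It was 6.82-fold at 29.8 kb from the start of TGFB2, 8.41-fold at 93.8 kb in TGFBR3 and 7.83-fold at 37.4 kb in SMAD2. In SMAD3 it was 6.64-fold at 73.1 kb, beside the internal 4-subunit site. In LOX it was 6.06-fold at 11.1 kb and in FOXO1 5.95-fold at 17.9 kb, near the subunit peaks described in each. The exception was TGFBR2, where it was the 9.04-fold peak beside the FLI1 peak. Of all 70 H3K4me1 peaks in the windows, 50 lay in the bodies of these genes away from their starts. The same share over all genes was not computed, so the 6 of 7 has no background.

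Taking the windows together, 45 merged sites with at least 1 of the 4 subunits were found. Of these, 19 held only 1 subunit, or 42.2%, against 45.6% of the 28995 sites in the series. All 4 subunits were at 9, or 20.0%, against 16.96%. Of the 9, 7 overlapped H3K27ac (62.8% of such sites in the series), 6 H3K4me1 (53.4%), 2 H3K4me3 (30.0%) and 1 FLI1. The 2 without H3K27ac were in LOX and at the internal SMAD3 start. The subunits were not equally high at these sites. Set against the median of 4-subunit sites in the whole series, RBBP4 was higher at 7 of 9 and CHD4 at 6 of 9, HDAC2 at 5 of 9 and MTA2 at 2 of 9. The median MTA2 fold was 5.60, against 6.997 over all 4917 such sites, and the median RBBP4 fold 5.56 against 4.83. The members' H3K27ac peaks were overlapped by HDAC2 in 14 of 27 (series 49.6%), MTA2 in 12 (34.7%), RBBP4 in 11 (30.0%), CHD4 in 10 (27.5%) and FLI1 in 1 (4.20%).

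**Figure D5:**
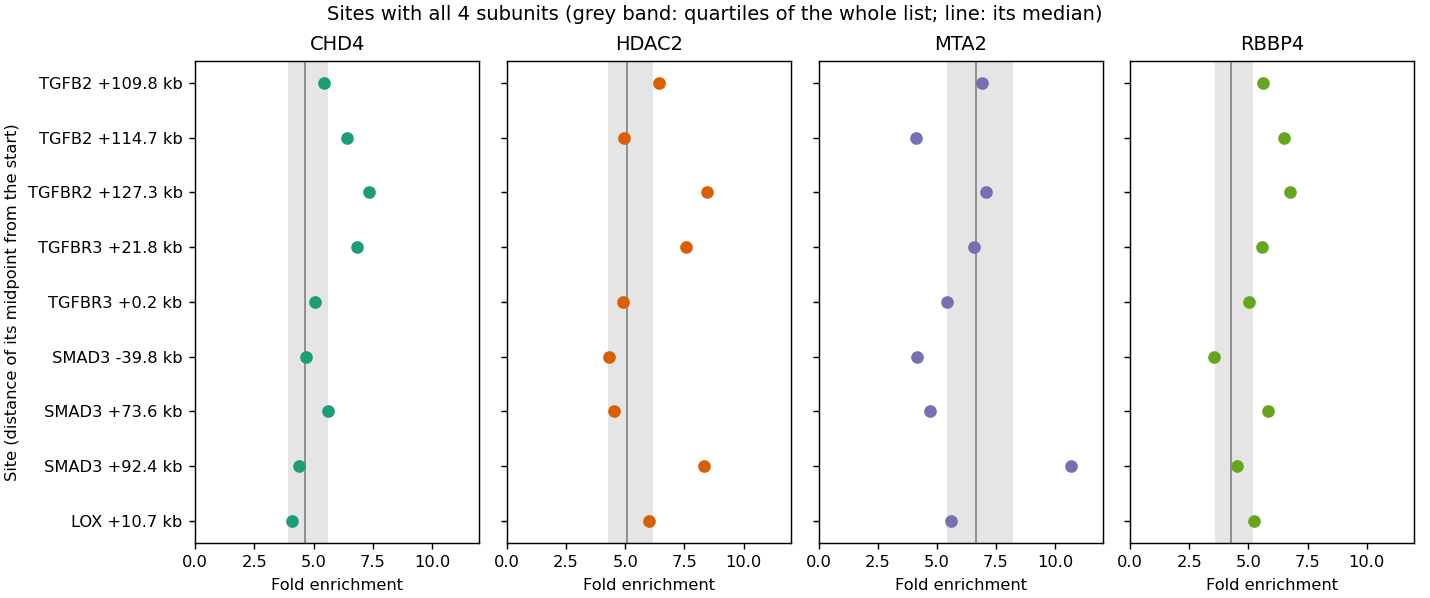
Fold enrichment of CHD4, HDAC2, MTA2 and RBBP4 (1 panel each, x axis) at the 9 sites with all 4 subunits, named on the y axis by gene and distance from its start. The grey band spans the quartiles of the subunit's whole list and the line is its median. MTA2 lies under its list median at 6 of 9 sites and RBBP4 over its own at 8 of 9. Over all 4917 such sites of the series the medians were 6.997 for MTA2 and 4.83 for RBBP4. Both are above the list medians, 6.64 and 4.26.

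The distance to the nearest FLI1 and H3K27me3 peak varied widely among the genes. After TGFBR2, with its FLI1 peak 39.3 kb from the gene, came SMAD2 (248.9 kb), TGFB1 (390.8 kb), FOXO1 (603.0 kb) and SMAD3 (644.9 kb), all nearer than the median of all genes, 747.1 kb. TGFB2 (905.7 kb), TGFBR1 (944.8 kb), TGFBR3 (1611 kb) and LOX were farther. The nearest H3K27me3 peak was 167.6 kb from TGFB1, 177.9 kb from TGFB2 and 234.3 kb from LOX, and with SMAD3 (629.4 kb) these were nearer than the median of all genes, 758.2 kb. For TGFBR1 (1600 kb), TGFBR3 (2330 kb), FOXO1 (2526 kb) and TGFBR2 (14531 kb) it was farther. The H3K27me3 list held no peak on the chromosome of SMAD2, chromosome 18, so its 0 there says nothing of the gene. At the edge of the windows, the H3K4me3 peak at the SRFBP1 start (12.9-fold) was inside the LOX window at 99.98 kb, and the next, of 12.5-fold, outside at 101.5 kb. A FOXO1 neighbour with H3K4me3 at 28.2-fold lay outside at 103.6 kb.

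Other genes of the pathway, 52 in all, had FLI1 in 9 windows (17.3%, against 12.7% of all genes), a 4-subunit site in 26 (50.0%, against 38.0%) and H3K27me3 in 10 (19.2%, against 14.5%). Of the 9 windows with FLI1, those of SMAD5 and TGFBI shared the same peak, of 4.39-fold. The 5 genes with the FLI1 peaks of highest −log10 p are described here. SKI, a repressor that binds SMADs, had 3 FLI1 peaks in its window. The one of highest −log10 p was 6.42-fold, lay inside the gene and overlapped no NuRD subunit. BMPR1A, a receptor for bone morphogenetic proteins, had one of 5.64-fold 7.68 kb away, and the ligand BMP2 one of 5.07-fold 3.80 kb away, each with all 4 subunits. The peak for CDKN2B, a cell cycle inhibitor induced by the pathway, was 5.43-fold, lay in MTAP 82.8 kb away and also had all 4. SMAD9, which carries bone morphogenetic protein signals, had one of 4.70-fold 3.68 kb away, with CHD4 and RBBP4. Of the 44 with a listed start, 36 had H3K4me3 there (81.8%, against 61.2%), 32 HDAC2 (72.7%, against 41.3%) and 0 FLI1 (against 0.885%). Among starts with H3K4me3 in the whole series, 65.6% had HDAC2. Of the 36 pathway starts with H3K4me3, 9 (25%) lacked H3K27ac, against 32.0% in the series.

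A list of 20 other genes known as lowered by the fusion had FLI1 in 1 window, that of TIMP3, an inhibitor of matrix proteases, at 7.07-fold 20.7 kb away with MTA2. That is 5.00% of the list, against 12.7% of all genes. H3K27ac was in 12 of the 20 windows (60.0%, against 78.1%) and H3K27me3 in 5 (25%, against 14.5%). Of the 16 with a listed start, 13 had H3K4me3 there and 9 of these 13 (69.2%) had no H3K27ac, against 32.0%: FOXO4, PHLDA1, SPRY1, SPRY2, THBS1, TIMP3, KLF2, PLAU and CDKN1A. HDAC2 was at 5 of those 9 starts, against 49.3% of such starts in the series. H3K27me3 was at 2 of the 16 starts (12.5%, against 2.47%), MME and CDKN1A. TGFBR2 and LOX also had H3K4me3 without H3K27ac at the start, as did TGFBR1, and FOXO1 had both marks. THBS1 and CDKN1A are also in the pathway list. Of 14 Ewing sarcoma markers and fusion targets, 9 had a FLI1 peak (64.3%, against 12.7%), with CAV1 highest at 17.8-fold. All 14 had a 4-subunit site, against 38.0% of all genes. These 14 were picked as targets and markers of cells with the fusion, so their high FLI1 and 4-subunit shares are no independent contrast.

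Genes most like each member were sought over the 9 targets, by the Euclidean distance of log2(1 + highest fold in the window), outside 1 Mb on the same chromosome. For TGFBR2 these were CACNA2D1 (0.64) and C5 (0.73), the largest distances among the 9, against a median over all genes of 4.43. For LOX they were NENF (0.20) and CNKSR2 (0.31), both also without H3K27ac. For FOXO1 they were PPP3CC (0.28) and RASL10B (0.33), and for TGFBR3 KSR1 (0.31) and EZR (0.35). For SMAD3 they were TSPAN9 (0.34) and PPP1R21 (0.37), and for SMAD2 CUL2 (0.31) and TP53RK (0.54), both without HDAC2. TGFB1 was nearest to HNRNPD and HNRNPDL (0.50), TGFB2 to GRAP2 and TMA7B (0.18) and TGFBR1 to GREB1L and ESCO1 (0.25). These are pairs of neighbours whose windows share the peaks compared. The highest fold could also lie at another gene of the window. For TGFBR1 those of MTA2, RBBP4, H3K27ac and H3K4me3 lay at ALG2 and SEC61B. For TGFB1 those of CHD4 and H3K27ac lay at HNRNPUL1 and that of H3K4me3 at EXOSC5. For TGFBR2 those of CHD4, HDAC2, RBBP4, FLI1, H3K27ac and H3K4me1 lay in GADL1. The highest H3K4me3 peak lay in AAGAB for SMAD3 and at RRP15 for TGFB2.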

How the data were processed

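ChIP-seq peak lists from SK-N-MC cells were used, 1 for each of 9 targets, grouped by the target in the labels. No list was used for the 2 inputs. Per the submitters' processing notes, the build was GRCh38 and the tools were BWA 0.7.17, Trimmomatic 0.36, bedtools 2.27.1, deepTools 3.2.1, FastQC 0.11.7 and SAMtools 1.9. Peak names carry MACS2, per the deposited lists; the sources used here name no version, control library or pooling for it. The fold enrichment at the summit is a ratio from the authors' peak caller, and the −log10 p is also as the authors deposited it. The deposited score was not used. The smallest −log10 p was 9.00 to 9.16 in 7 lists, 7.01 for RBBP4 and 5.02 for FLI1, and depth is unknown.

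Windows were gene bodies plus 100 kb each side (RefSeq gene table, GRCh38), and a peak counted with 1 bp inside. Starts came from the RefSeq promoter table, which has none for 4161 genes. Subunit peaks sharing 1 bp were merged. Exon structure was not used here. Counts were set beside the same counts over all protein-coding genes, and no test was run. The scripts (Python 3.11.15, numpy 2.4.6, pandas 2.3.3) were tested on simulated peaks. All 9 genes are named, each with its FLI1, 4-subunit and mark peaks of highest rank and, for each target, its highest peak at the start, and from each list up to 5 genes with the highest FLI1 −log10 p. The TGFBR3 HDAC2 peak upstream, the peaks of 3 subunits within TGFB2, the MTA2 peak in TGFBR2 and the 9 genes lacking H3K27ac at the start were chosen after their values were seen. The members and lists were chosen with earlier results of these data known. Alternatives covered the p threshold, the window, the summit and the start distance.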

Additional observations from a re-analysis of the deposited data

How the results depend on the processing

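Of 24 recomputed counts, 20 stayed within 1.5 times the reported one. With 10 kb on each side of the gene, 0 of the 9 genes had a FLI1 peak and 3 had a site with all 4 subunits (TGFBR3, SMAD3 and LOX). With 250 kb, 2 had a FLI1 peak, SMAD2 being the second, and 3 had H3K27me3 (TGFB1, TGFB2 and LOX). Raising the −log10 p threshold of all lists to 15 left 4 genes with a 4-subunit site, without LOX. Requiring the summits within 250 bp of the CHD4 summit also left 4, without TGFBR2. No paired analysis was possible because each target had 1 library. For the same reason no library could be left out. Depth is unknown, so a missing peak in a list may be a missed one, and the FLI1 list used a weaker threshold than the others.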
